A study of Trichoderma reesei with 9 samples.

Results

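Carbohydrate-active enzymes (CAZymes) are the proteins that build, cut or bind sugar polymers, and 88 of the 9849 genes counted in *Trichoderma reesei* were examined here as its hemicellulases, glycosyltransferases and other CAZymes, after removal of a named set of families that act on fungal walls. The members were chosen from the study's own lists of genes that differed from glucose, so they were selected on the measured differences between necromass and glucose. Any listed gene with a CAZyme family tag was taken, which gave 140 genes. From these, 47 genes of the named families (among them those of chitinases, β-1,3-glucanases and mannosidases) and 5 core cellulase and AA9 genes were left out. The set did not name GH72, whose enzymes remodel the fungus's own wall, or the AA1_2 and AA1_3 subfamilies of multicopper oxidases, so their genes were kept. The list for low melanin necromass named 83 of the members and 5 came only from the list for high melanin necromass, which was held in part here. No member came from the list of genes that differed between the high and low melanin types, of which little was at hand. All 88 passed the filter on low counts (at least 10 counts in at least 3 of the 9 libraries), as did 9312 genes in all.

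The cultures were strain RUT-C30 in every group; its *cre1*, the gene for the main carbon catabolite repressor, is truncated. They were harvested at 7 days on Highley's medium with one of 3 carbon sources: glucose at 1%, low melanin necromass at 0.45% or high melanin necromass at 0.45%, all by weight per volume. Necromass is dead mycelium, here of the ascomycete *Hyaloscypha bicolor*, and each type was harvested in bulk from its own culture conditions. Volume and shaking differed between these conditions as well as melanin. Each substrate had 3 replicate cultures sequenced, with library totals of 19602387 to 20541445 counts on glucose, 18074631 to 22327638 on low melanin and 21447367 to 24635281 on high melanin necromass. The p-values below set differences against the spread between these replicate cultures. As each necromass type was harvested in bulk, they do not cover variation between harvests of a type.

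Filamentous fungi that live on plant material secrete sets of enzymes that act together. Cellulases and β-glucosidases take cellulose to glucose, xylanases cut the xylan backbone, and esterases, arabinofuranosidases and glucuronidases strip its side groups. Mannanases and galactosidases act on mannans, and polygalacturonases and their partners on pectin. *T. reesei* is known for this set, whose genes are repressed on glucose in the wild type and are released in part in strains with a truncated *cre1*. Glycosyltransferases (GT) work the other way: they sit mostly inside the cell and join sugars to proteins, lipids or wall polymers. Family names follow the CAZyme classes: GH for glycoside hydrolases, CE for carbohydrate esterases, PL for polysaccharide lyases, AA for oxidative enzymes of auxiliary activity and CBM for binding modules.

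By family the members comprised 50 GH genes, 17 GT genes, 7 CE or PL genes, 9 AA genes and 5 genes with only an expansin or CBM tag. They fell into 51 families, of which 32 had a single member. The largest were GH3 with 8 genes and GH27 and GT32 with 5 each. CBM1, the cellulose-binding module of fungi, was present in 9 members. Genes are named by the protein number of the RUT-C30 gene model and their family tag, and a role was set from the family alone: cellulose and β-glucosides (18 genes), xylan (17), mannan and galactosides (10), pectin, xyloglucan and related polymers (13), α-glucosides and trehalose (3), oxidative enzymes (8), GT (17) and a GH72 gene with a lone CBM66 gene (2).

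Together the members took a small part of the mRNA on glucose and several times more on necromass. They held 0.788%, 1.20% and 1.15% of all counts in the 3 glucose libraries (mean 1.05% ± 0.225, SD, n = 3). On low melanin necromass they held 5.23%, 6.0% and 5.11% (5.45% ± 0.482), and on high melanin necromass 6.75%, 6.92% and 6.41% (6.69% ± 0.255). All high melanin libraries lay above all low melanin libraries, and both above glucose. Between the necromass types only the cellulose and xylan roles had this order. The cellulose role held 2.95%, 3.62% and 2.90% on low melanin and 4.42%, 4.44% and 4.04% on high melanin necromass. There, AA9 gene 139633 alone held 1.09%, 1.03% and 1.07%. The pectin, mannan, oxidative and α-glucoside roles were lower in every high melanin than in any low melanin library, and the other roles overlapped. The 5 core genes that were left out took 17.5% to 21.6% of counts on low melanin and 25.2% to 29.5% on high melanin necromass, so shares of the remaining genes were set against a total in which these 5 genes weighed differently. Levels below are therefore counts per 1000000 (CPM) scaled with TMM factors (trimmed mean of M-values, which set the bulk of genes level between libraries), and 3 values in a row are replicates 1, 2 and 3. With no gene lengths at hand, levels were compared between libraries and not between genes.

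Against glucose the members divided into a large group that was higher on necromass and a smaller one that was lower. These differences chose the members, so the counts that follow are a description, and the limits serve only to sort the genes. With a 4-fold difference (log2 fold change of 2) and an adjusted p under 0.05 as limits, 66 members were higher and 17 lower on low melanin necromass, beside 12.0% and 7.18% of all tested genes. On high melanin necromass 62 were higher and 20 lower, beside 13.5% and 8.80% of all genes. The median log2 fold change of the members was 3.43 on low and 3.93 on high melanin necromass, with 0.01 and 0.02 over all genes. Both contrasts share the glucose libraries. At the edge of the choice, the 5 members closest to the limit on low melanin necromass had log2 fold changes of 2.07 (75171), 2.09 (12566), 2.09 (82061), 2.10 (32557) and 2.11 (77989). Just outside it, and listed only for high melanin necromass, were 122799 at −1.91, 82054 at −1.88 and 113118 at −1.76.

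**Figure D1:**
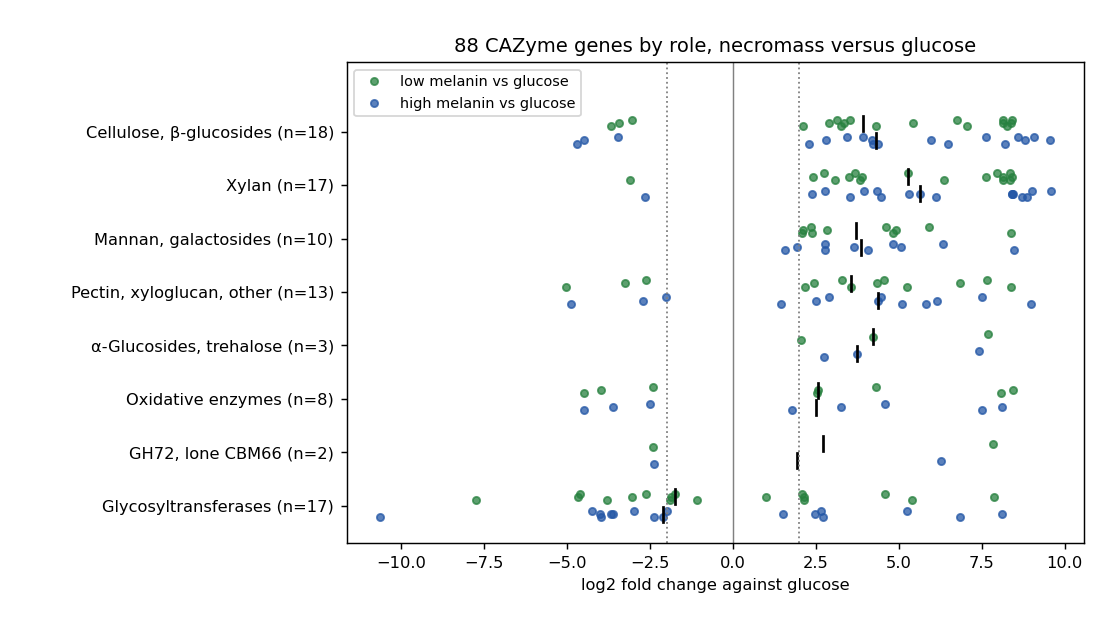
Log2 fold change of each of the 88 members against glucose (x axis) by role (rows, with the number of genes), for low melanin (green) and high melanin necromass (blue). Each point is a gene, black bars are role medians and dotted lines mark a 4-fold difference; the xylan genes lay to the right with 1 exception, and the GT genes were spread on both sides.

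Xylan-acting genes were nearly all higher on necromass, 16 of 17 on either type, with median log2 fold changes of 5.28 and 5.63. The GH10 gene 23616, of an endoxylanase family, had 9.87, 9.98 and 6.64 CPM on glucose. It had 2695, 3247 and 3050 CPM on low melanin and 2734, 2914 and 3435 CPM on high melanin necromass. Of the 3 GH11 genes, also endoxylanases, 124931 went from 7.47, 6.90 and 4.97 CPM on glucose to 1908, 1782 and 1812 CPM on low melanin necromass. Its libraries on necromass lay far above those on glucose, as did those of GH30_7 gene 93498, of a subfamily that holds fungal xylanases. The side-chain enzymes had a like direction. GH62 gene 118070, of an arabinofuranosidase family, had 1.78, 0.679 and 0.492 CPM on glucose and 270, 314 and 276 CPM on low melanin necromass. The α-glucuronidase gene 90302 (GH67) had 1.20, 3.66 and 3.05 CPM on glucose and 213, 229 and 205 CPM on low melanin necromass. Every necromass library of these genes was above every glucose library. The exception was 72252, 1 of 2 GH54 arabinofuranosidase genes, with 4.45, 108 and 137 CPM on glucose and 8.04, 14.7 and 6.05 CPM on low melanin necromass. Its glucose replicate 1 lay below every necromass library and the other two above them, and its log2 fold change of −3.11 became −3.68 without that library. Other xylan genes were higher on low melanin necromass too, among them GH11 gene 38418 (log2 fold change 3.83) and CE16 gene 5643 (2.75). GH43 gene 77521, of a β-xylosidase and arabinofuranosidase family, was at 3.67, and GH115 gene 25542, of an α-glucuronidase family, at 2.42. The CE genes 139631, 125575, 136770, 76732 and 88887 stood at 8.36, 8.35, 7.64, 5.28 and 3.51. GH11 gene 134945 had 2, 0 and 1 counts on glucose. Against a floor of 3 counts per library it was at least 5.43-fold higher on low melanin and 14.6-fold on high melanin necromass. The second GH54 gene, 102517, was also higher on necromass, with log2 fold changes of 3.09 and 3.53.

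**Figure D2:**
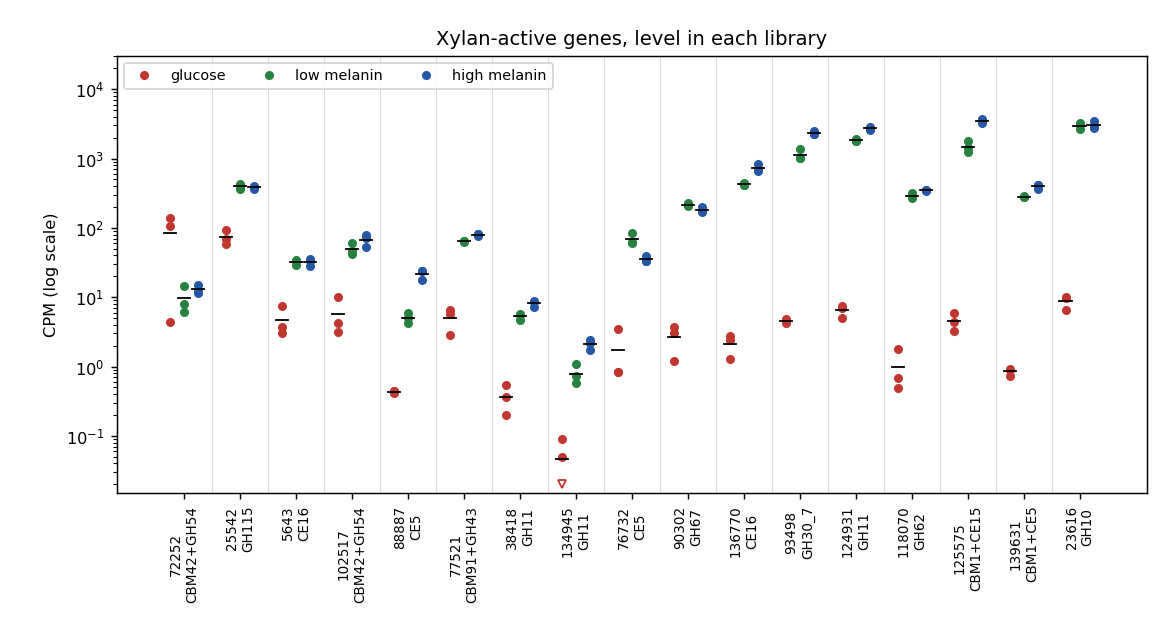
CPM of the 17 xylan-acting genes in each of the 9 libraries (log axis). Points are replicates by substrate, short bars are group means and open triangles mark libraries with 0 counts; the necromass libraries of the GH10 gene 23616 lay between 2695 and 3435 CPM and its glucose libraries under 10 CPM.

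In the cellulose role, 15 of 18 genes were higher and 3 lower on each necromass type. All 8 GH3 genes, a family of β-glucosidases and β-xylosidases, were higher on both types, with log2 fold changes on low melanin necromass from 2.89 (74305) to 8.15 (136547). Genes 125268 and 122639 were at 3.15 and 3.53. Gene 121449, with a CBM1 tag alone, had 12.6, 13.8 and 8.86 CPM on glucose and 3444, 4515 and 3822 CPM on low melanin necromass. The GH45 endoglucanase gene 25940, which carries CBM1, had 21.0, 19.5 and 13.7 CPM on glucose and 5416, 7631 and 5550 CPM on low melanin necromass. GH7 gene 5304, of a cellulase family, had 7.16, 7.94 and 6.05 CPM on glucose and 1733, 2506 and 2261 CPM on low melanin necromass. These genes were at a high level in every necromass library. The 3 lower genes were GH12 gene 97721, of an endoglucanase family, and 2 expansin-tagged genes. Expansins loosen cellulose without cutting it. Gene 105293 had 1893, 4329 and 4106 CPM on glucose, 295, 223 and 285 CPM on low melanin and 113, 148 and 131 CPM on high melanin necromass. The expansin-tagged gene with CBM1, 104220, went the other way, from 48.0, 120 and 96.2 CPM on glucose to 3499, 4739 and 3076 CPM on low melanin necromass. Members that share the expansin tag therefore lay on opposite sides.

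All 10 mannan and galactoside genes were higher on low melanin necromass and 8 passed the 4-fold limit on high melanin necromass. The mannanase gene 122377 (GH5_7 with CBM1) had 1.51, 1.93 and 1.33 CPM on glucose and 428, 672 and 513 CPM on low melanin necromass. The 5 GH27 genes, of an α-galactosidase family, ranged in log2 fold change on low melanin necromass from 2.10 (32557) to 4.93 (71638). Gene 58886 was low on all substrates, at 0.311, 0.104 and 0.246 CPM on glucose and 1.47, 0.895 and 1.26 CPM on low melanin necromass. Another, 84246, had 3, 1 and 3 counts in the glucose libraries. Against a floor of 3 counts per library it was at least 19.7-fold higher on low melanin necromass and at least 22.9-fold on the high melanin type. The GH2 genes, of a family with β-mannosidases and β-galactosidases, were higher too, with log2 fold changes on low melanin necromass of 5.90 (93487) and 2.84 (12549).

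Of the 13 genes for pectin, xyloglucan and related polymers, 10 were higher and 3 lower on low melanin necromass. The 3 GH28 genes, of the polygalacturonase family, did not share a direction. Gene 91667 had 0.311, 0.366 and 0.295 CPM on glucose and 111, 121 and 100.5 CPM on low melanin necromass. Gene 133383 had 0.711, 0.522 and 0.443 CPM on glucose and 112, 107 and 125 CPM on low melanin necromass. In contrast, 91734 was higher on glucose, with 0.934, 1.25 and 1.23 CPM on glucose and at most 0.456 CPM in any necromass library. The 2 GH79 genes, of a β-glucuronidase family, also split. Gene 69609 had 6.23, 11.6 and 8.17 CPM on glucose and 0.368, 0.268 and 0.145 CPM on low melanin necromass, whereas 74991 was higher on necromass (log2 fold changes 3.57 and 5.08). The xyloglucanase-family gene 111943 (GH74 with CBM1) had 32.1, 23.1 and 24.5 CPM on glucose and 3051, 2802 and 3278 CPM on low melanin necromass. Gene 74937 (GH78, a rhamnosidase family) was the third lower gene, at 0.934, 5.43 and 6.20 CPM on glucose and 0.263, 0.716 and 0.291 CPM on low melanin necromass. GH30_5 gene 11580 was higher (log2 fold change 4.56), as were all 3 GH95 genes, a family of α-fucosidases, at 2.16 (38400), 4.33 (39268) and 3.29 (128297).

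The α-glucosidase genes 75171 (GH13_40) and 134448 (GH31) and the trehalase-family gene 102372 (GH37) were higher on both necromass types. On the low melanin type they stood at log2 fold changes of 2.07, 7.70 and 4.21. The oxidative enzymes split, with 5 of 8 higher and 3 lower on low melanin necromass. Gene 114133, of the alcohol oxidase subfamily AA3_3, had 13.7, 14.6 and 10.2 CPM on glucose and 4459, 4867 and 4023 CPM on low melanin necromass. The second AA3_3 gene, 115868, was also higher, with a log2 fold change of 8.10. The multicopper oxidase genes 86804 (AA1_2) and 36885 (AA1_3) were lower, with log2 fold changes of −4.50 and −3.98. AA12 gene 36756 was higher by 2.58. The 2 AA3_2 genes, of the same oxidoreductase family as AA3_3, took opposite directions, 77360 at 4.32 and 104503 at −2.40. GH72 gene 103899, of a family of β-glucanosyltransferases that remodel the fungus's own wall, had 1485, 1742 and 1266 CPM on glucose and 309, 230 and 299 CPM on low melanin necromass. The lone CBM66 gene 8591 had 0, 2 and 0 counts on glucose, and was at least 59.7-fold higher on low melanin necromass and at least 20.4-fold on the high melanin type against the same floor.

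The glycosyltransferases were the only role with a median below 0 on both types, −1.76 on low and −2.10 on high melanin necromass. On low melanin necromass 6 were higher, 6 lower and 5 within the limits; on high melanin necromass 6 were higher and 9 lower. GT32, a family that holds the α-mannosyltransferase Och1 of *Saccharomyces cerevisiae*, spanned the widest range. Gene 124397 had 1.91, 2.25 and 3.25 CPM on glucose, 493, 773 and 481 CPM on low melanin and 810, 752 and 481 CPM on high melanin necromass. Gene 108458 had 265, 287 and 360 CPM on glucose, 1.52, 1.74 and 0.968 CPM on low melanin and 0.128, 0 and 0.456 CPM on high melanin necromass. These 2 genes of one family stood at opposite ends of the glycosyltransferases. The GT15 gene 91596, of the family of the Golgi mannosyltransferase Kre2 of *S. cerevisiae*, had 3.07, 2.77 and 2.95 CPM on glucose and 111, 146 and 112 CPM on low melanin necromass. GT31 gene 134774 was lower, with 51.1, 48.6 and 43.1 CPM on glucose and 1.63, 2.55 and 1.65 CPM on low melanin necromass. Others that were lower were GT1 gene 141126 (log2 fold change −3.79), GT71 gene 132828 (−3.03) and GT2 gene 140893 (−2.63), whereas GT31 gene 72094 was higher (2.14). The GT90 gene 130510 was under 2 CPM in every library and at −1.10. The GT4 gene 122799 had 82.1, 2037 and 1760 CPM on glucose and 392, 313 and 328 CPM on low melanin necromass. Its glucose replicate 1 lay below the necromass libraries and the other two above them, and the log2 fold change was −1.91 with that library and −2.47 without it.

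**Figure D3:**
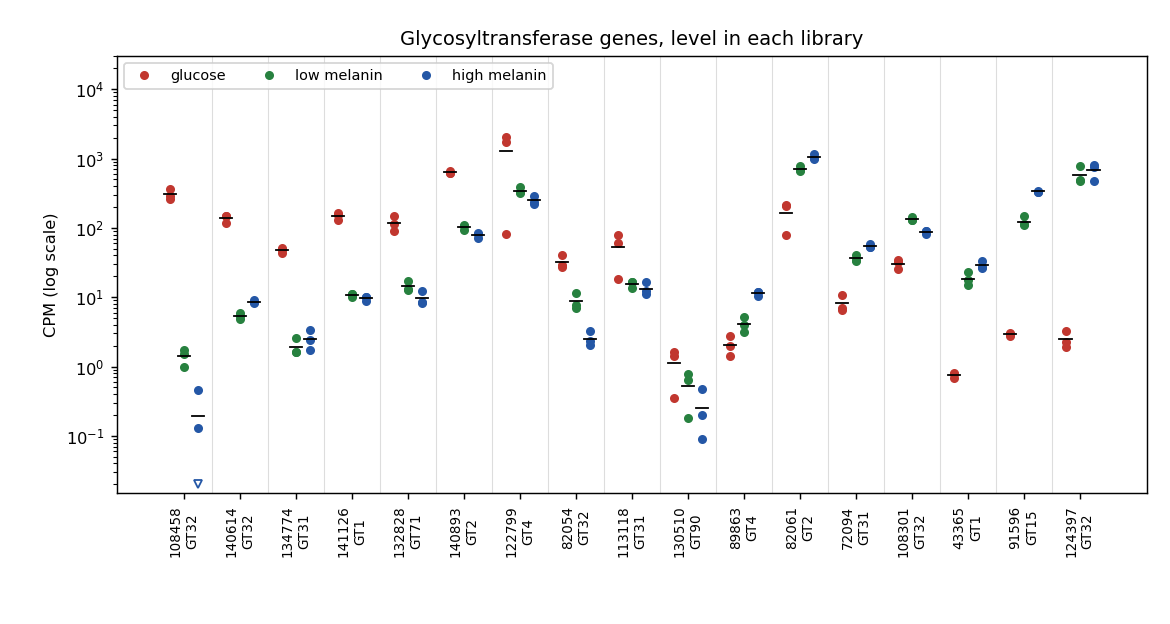
CPM of the 17 GT genes in each of the 9 libraries (log axis). Points are replicates by substrate, short bars are group means and an open triangle marks a library with 0 counts. GT32 genes 108458 and 124397 lay at opposite ends: the first was above 264 CPM on glucose and under 2 CPM on necromass, the second under 4 CPM on glucose and at least 481 CPM on necromass.

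Glucose replicate 1 stood apart as a library and in several members. Its TMM factor was 1.12, beside 0.977 and 0.989 for replicates 2 and 3. Its most counted gene took 0.762% of counts, while another gene took 2.24% and 2.38% in replicates 2 and 3. It lay more than 2-fold below both other glucose libraries in 12 members and more than 2-fold above both in 7. The same was not counted over all genes or for replicates 2 and 3, so these counts do not set the members apart. The GH1 β-glucosidase-family gene 127115, for example, had 35.9, 222 and 375 CPM on glucose, and its log2 fold change on low melanin necromass was 4.31 with replicate 1 and 3.80 without it. Without that library the value of AA1_2 gene 86804 moved from −4.50 to −3.79, of GT2 gene 82061 from 2.09 to 1.75 and of PL38 gene 92233 from 2.43 to 2.00. In GH54 gene 102517 it moved from 3.09 to 3.75, in GH3 gene 122639 from 3.53 to 4.20 and in GH62 gene 118070 from 8.15 to 8.92. For GH105 gene 6699 it moved from 5.26 to 6.55 and for CE5 gene 76732 from 5.28 to 6.33. All of these kept their direction. Leaving out other libraries also moved single fold changes, taken off the log2 scale, by more than 1.5 times. Without glucose replicate 3 the log2 fold change of 127115 was 5.01 and that of GH95 gene 128297 went from 3.29 to 3.87. Without low melanin replicate 2 that of GH78 gene 74937 went from −3.26 to −3.90. Larger moves came from few counts. CBM66 gene 8591 went from 7.83 to 10.5 without glucose replicate 2. GH28 gene 91734, with 2, 0 and 9 counts on low melanin necromass, went from −2.63 to −4.4 without low melanin replicate 3 and to −2.03 without replicate 2. The members varied more between glucose replicates than on necromass, with a median coefficient of variation of 26.9% on glucose, 14.0% on low melanin and 8.75% on high melanin necromass. Over all genes the same medians were 19.3%, 8.31% and 7.86%.

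Relative to necromass, the glucose levels of some members with the greatest differences lay near those of the core genes. This ratio restates the difference that chose the members, so it is a description, and its limit was set from the core genes. The 5 core genes stood on glucose at 0.273% to 0.306% of their level on low melanin necromass. Within 2 times the highest of these values (0.612%) were 20 members, which ranged from 0.289% to 0.500%. These included 23616, 124931, 25940, 5304, 139633, 114133, 91667, 124397 and 118070, which span xylan, cellulose, pectin, oxidative and GT roles. The next members above the limit were 140746 at 0.75%, 111943 at 0.87% and 82126 at 0.91%. Among the 20, CBM66 gene 8591 had only 0, 2 and 0 counts on glucose. The share was lowest in glucose replicate 3 for 17 of the 20 members and for 5 of 5 core genes, which was not counted over other genes. The source of these glucose counts was not tested, and the size of the differences given for these genes rests on them.

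**Figure D4:**
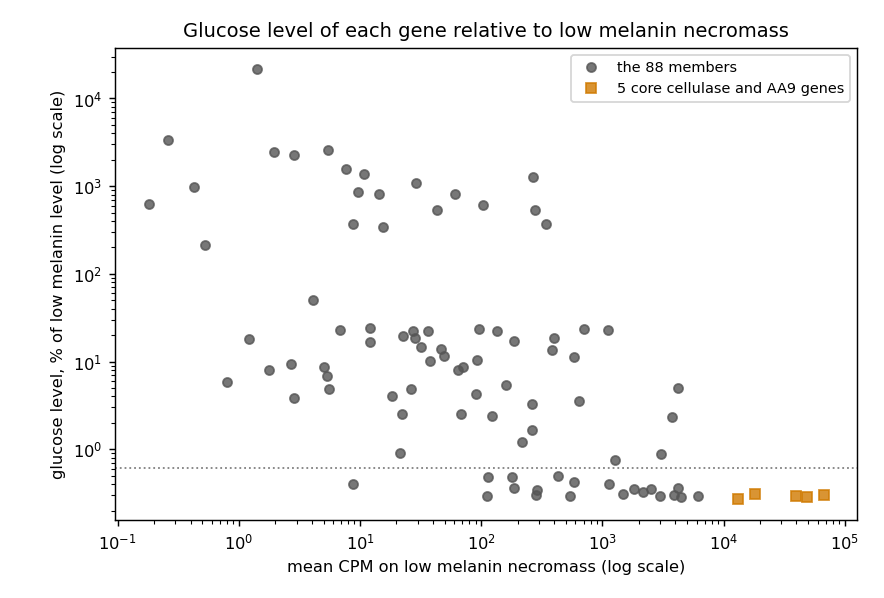
Glucose level of each of the 88 members as a percentage of its low melanin level (y axis, log scale) against its mean CPM on low melanin necromass (x axis, log scale), with the 5 core genes as squares. The core genes lay between 0.273% and 0.306%, and 20 members lay at or below the line at 0.612%.

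The comparison of high with low melanin necromass was not used to choose the members, although it shares the necromass libraries with the contrasts that were, and it was tested over all 9312 genes. At a Benjamini-Hochberg adjusted p under 0.05 in the quasi-likelihood test of edgeR, 17 members rose on high melanin necromass, 9 fell and 62 did not pass. Of all tested genes 5.26% rose and 3.93% fell, that is 9.19% together, beside 29.5% of the members. The changes were modest. Only 2 members, 88887 and 108458, passed with at least a 4-fold change, as did 0.870% of all genes. The median log2 fold change was 0.20 over the members and −0.01 over all genes. In 36 members all high melanin libraries lay above all low melanin libraries, and in 25 all lay below, whereas 24.7% and 24.1% of all genes did so. Leaving out single libraries changed the number of members called from 26 to between 10 (without low melanin replicate 3) and 47 (without glucose replicate 1). It was 12 without low melanin replicate 1 or high melanin replicate 3, 13 without high melanin replicate 1 and 16 without high melanin replicate 2.

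**Figure D5:**
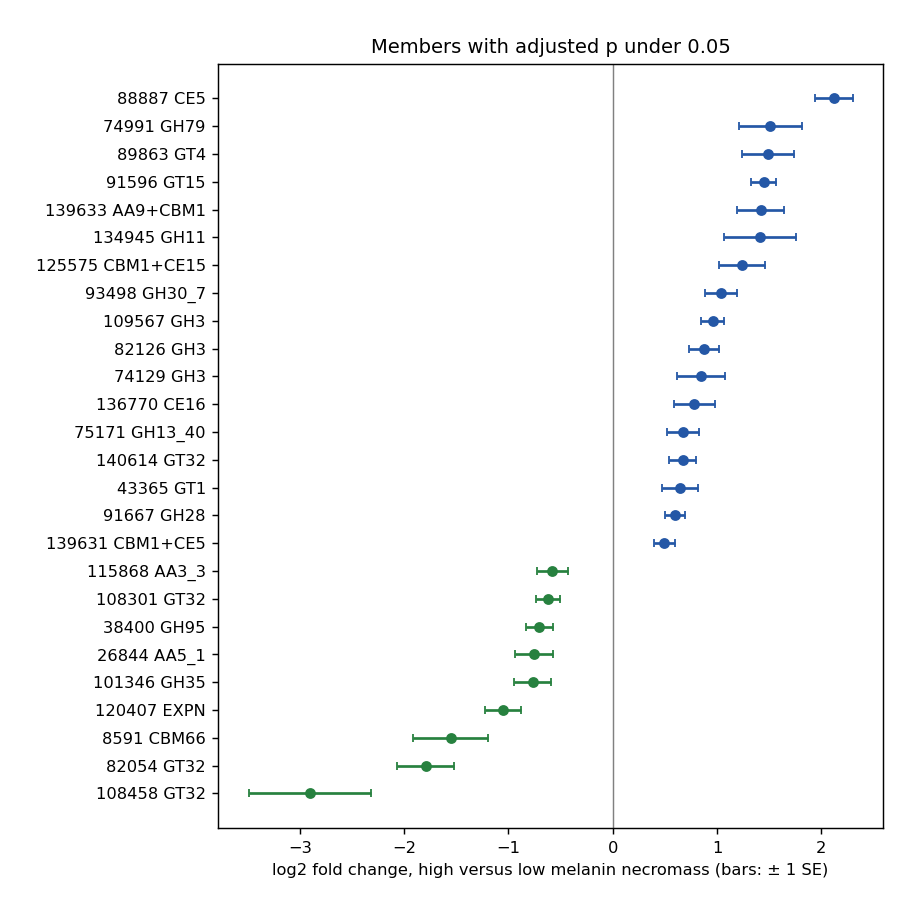
Log2 fold change between the necromass types (high versus low melanin, x axis) for each member that passed the test (rows). Bars are standard errors derived from the test statistic (edgeR's quasi-likelihood fit of 9 libraries). The 17 genes that rose lay between 0.49 and 2.12 and the 9 that fell between −0.58 and −2.90.

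Xylan-acting genes made up 6 of the 17 members that rose, and none of the 17 genes with this role fell in edgeR (1 at an unadjusted p under 0.05, and 0 by DESeq2). Of all tested genes 5.26% rose and 3.93% fell, and in a list this short an absence of falls is near the latter share. The largest increase was in 88887, a CE5 gene of the family of acetylxylan esterases and cutinases, with 4.26, 5.86 and 4.94 CPM on low melanin and 18.0, 23.6 and 24.1 CPM on high melanin necromass. The groups did not overlap, and the log2 fold change was 2.12 ± 0.18 (SE; edgeR, Benjamini-Hochberg adjusted p = 0.000556). GH30_7 gene 93498 had 1007, 1374 and 1018 CPM on low melanin and 2251, 2271 and 2458 CPM on high melanin necromass. It too separated the groups, by 1.04 ± 0.16 on the log2 scale (edgeR, Benjamini-Hochberg adjusted p = 0.0051). The CE15 gene 125575 carries CBM1 and belongs to the glucuronoyl esterases, which cut the ester link between xylan and lignin. It had 1411, 1789 and 1253 CPM on low melanin and 3264, 3528 and 3707 CPM on the high melanin type. Its log2 fold change was 1.24 ± 0.22 (edgeR, Benjamini-Hochberg adjusted p = 0.0092), and the adjusted p rose as far as 0.0549 when low melanin replicate 1 or 3 was left out. The other xylan genes that rose were GH11 gene 134945 (1.41 ± 0.34), CE16 acetyl esterase-family gene 136770 (0.78 ± 0.20) and 139631 (CE5 with CBM1; 0.49 ± 0.10). The call of each was lost without at least 5 of the 6 necromass libraries taken singly, and with the replicate number as a block, with adjusted p up to 0.15, 0.161 and 0.0876 in edgeR. The first of these had only 11, 24 and 15 counts on low melanin and 57, 50 and 34 counts on high melanin necromass. Among the 11 xylan genes that did not pass, the GH10 gene 23616 was nearly level between the types (0.01), and GH11 gene 124931 had a log2 fold change of 0.57 (edgeR, Benjamini-Hochberg adjusted p = 0.057). CE5 gene 76732 had the lowest value, −0.95, with 59.8, 62.0 and 83.0 CPM on low melanin and 33.8, 38.8 and 33.4 CPM on high melanin necromass.

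Among cellulose genes 4 rose and 1 fell, or 27.8% called. Over all tested genes 9.19% were called, with 5.26% that rose and 3.93% that fell. The AA9 gene 139633, a lytic polysaccharide monooxygenase with CBM1 outside the core set, had 3838, 5107 and 3613 CPM on low melanin and 11491, 10468 and 11589 CPM on high melanin necromass. Its high melanin libraries were more than 2-fold above each low melanin library, with a log2 fold change of 1.42 ± 0.23 (edgeR, Benjamini-Hochberg adjusted p = 0.0067). Of the 8 GH3 genes, 3 rose. Gene 109567 had 84.2, 108 and 87.1 CPM on low melanin and 186, 174 and 184 CPM on the high melanin type, a log2 fold change of 0.96 ± 0.11 (edgeR, Benjamini-Hochberg adjusted p = 0.0020). Gene 82126 had 21.6, 22.3 and 20.3 CPM on low melanin and 37.2, 37.0 and 43.7 CPM on the high melanin type. Its log2 fold change was 0.88 ± 0.15 (edgeR, Benjamini-Hochberg adjusted p = 0.0079; 0.0502 without low melanin replicate 3). In the other GH3 gene that rose, 74129, the change of 0.85 ± 0.23 lost its call whenever a necromass library was left out, with adjusted p in edgeR of up to 0.209. The remaining GH3 genes had values from −0.59 (140746) to 0.44 (136547) and did not pass. The gene that fell was the expansin-tagged 120407, with 26.8, 27.4 and 32.3 CPM on low melanin and 12.0, 14.3 and 15.4 CPM on high melanin necromass. It changed by −1.05 ± 0.18 (edgeR, Benjamini-Hochberg adjusted p = 0.0079) and was thus highest on glucose and lowest on high melanin necromass. The other expansin-tagged gene without CBM1, 105293, had a nearly equal value of −1.03 with a larger error (SE 0.29) and did not pass (edgeR, Benjamini-Hochberg adjusted p = 0.056).

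No mannan or galactoside gene rose in edgeR (1 at an unadjusted p under 0.05, and 1 by DESeq2) and 1 of 10 fell. The 10% called was near the 9.19% of all tested genes, of which 5.26% rose and 3.93% fell. The gene that fell is given next. This was the β-galactosidase-family gene 101346 (GH35), with 669, 633 and 619 CPM on low melanin and 347, 406 and 375 CPM on high melanin necromass. The groups were well apart, by −0.77 ± 0.17 on the log2 scale (edgeR, Benjamini-Hochberg adjusted p = 0.025), although the call was lost without any one of the 6 necromass libraries (up to 0.113). None of the 5 GH27 genes passed in edgeR or DESeq2, and 0 had an unadjusted p under 0.05, with values from −0.17 (32557) to 0.45 (39277). The mannanase gene 122377 was at 0.09.

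In the pectin and xyloglucan role 2 genes rose and 1 fell. That is 23.1% called, beside 9.19% of all tested genes (5.26% up and 3.93% down). The GH28 gene 91667 had 111, 121 and 100.5 CPM on low melanin and 170, 157 and 175 CPM on high melanin necromass, and rose by 0.60 ± 0.10 (edgeR, Benjamini-Hochberg adjusted p = 0.0069). GH79 gene 74991 was low in every library, with 1.89, 2.28 and 1.16 CPM on low melanin and 4.92, 4.53 and 5.83 CPM on high melanin necromass. Its change of 1.51 ± 0.30 (edgeR, Benjamini-Hochberg adjusted p = 0.015) had an adjusted p of up to 0.075 without low melanin replicate 1 or 3 or high melanin replicate 1 or 3. The α-fucosidase-family gene 38400 (GH95) fell, from 28.4, 25.9 and 28.5 CPM to 18.2, 17.6 and 15.1 CPM. Both groups were tight, and the change was −0.70 ± 0.13 (edgeR, Benjamini-Hochberg adjusted p = 0.011; up to 0.0604 without low melanin replicate 1 or 3 or high melanin replicate 3). The other two GH95 genes had values of 0.05 (39268) and −0.38 (128297). The xyloglucanase-family gene 111943 had 2258, 2006 and 1464 CPM on high melanin necromass, below each low melanin library, and did not pass (−0.67; edgeR, Benjamini-Hochberg adjusted p = 0.065).

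Among the remaining hydrolase, oxidative and binding genes, 1 rose and 3 fell, beside 5.26% and 3.93% of all tested genes. The GH13_40 gene 75171 rose by 0.68 ± 0.16, from 12.2, 14.0 and 10.2 CPM to 17.7, 19.0 and 21.4 CPM (edgeR, Benjamini-Hochberg adjusted p = 0.027). The call was lost without any one necromass library other than low melanin replicate 2 (adjusted p in edgeR up to 0.126). No oxidative gene rose in edgeR (1 at an unadjusted p under 0.05, and 1 by DESeq2), beside 5.26% of all tested genes. The AA5_1 gene 26844, of a subfamily with glyoxal oxidases that release hydrogen peroxide, had 182, 217 and 164 CPM on low melanin and 110, 105 and 117 CPM on high melanin necromass. It fell by 0.76 on the log2 scale (SE 0.18; edgeR, Benjamini-Hochberg adjusted p = 0.031; up to 0.12 with 1 library left out). The AA3_3 gene 115868 had 193, 197 and 174 CPM on low melanin and 128, 119 and 130 CPM on high melanin necromass and fell by 0.58 (SE 0.15; edgeR, Benjamini-Hochberg adjusted p = 0.044; up to 0.169 with 1 library left out). Both lost their call without any one of the 6 necromass libraries. The multicopper oxidase genes 86804 and 36885 did not pass, at −0.01 and 0.36. The CBM66 gene 8591, nearly without counts on glucose, had 113, 195 and 237 counts on low melanin and 49, 75 and 69 counts on high melanin necromass. It changed by −1.55 ± 0.36 (edgeR, Benjamini-Hochberg adjusted p = 0.028), with an adjusted p of up to 0.144 when a necromass library other than low melanin replicate 1 was left out. The levels of GH72 gene 103899 overlapped between the types (log2 fold change 0.03).

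The glycosyltransferases changed in both directions between the necromass types, with 4 that rose, 3 that fell and 10 that did not pass. The share called was 41.2%, beside 9.19% of all tested genes, of which 5.26% rose and 3.93% fell. GT15 gene 91596 had 111, 146 and 112 CPM on low melanin and 331, 333 and 344 CPM on high melanin necromass. The groups were far apart relative to their spread, with a log2 fold change of 1.45 ± 0.12 (edgeR, Benjamini-Hochberg adjusted p = 0.000556). GT4 gene 89863 had 3.15, 3.94 and 5.13 CPM on low melanin and 12.0, 11.9 and 10.4 CPM on high melanin necromass, while its glucose libraries were at 2.71, 1.99 and 1.43 CPM. It rose by 1.49 ± 0.25 (edgeR, Benjamini-Hochberg adjusted p = 0.0079), and on low melanin necromass it was less than 2-fold above glucose by the fit (log2 fold change 0.99). GT1 gene 43365, of a family that joins sugars to small molecules, rose by 0.65 ± 0.17 (edgeR, Benjamini-Hochberg adjusted p = 0.049). Its call was lost without glucose replicate 2 and without any one necromass library other than low melanin replicate 2 (adjusted p in edgeR up to 0.199).

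Of the 5 GT32 genes, 4 passed the test, 1 upward and 3 downward, beside 5.26% and 3.93% of all tested genes. Gene 140614 had 4.84, 5.95 and 5.42 CPM on low melanin and 8.99, 8.17 and 8.67 CPM on high melanin necromass, against 118 to 148 CPM on glucose. It rose by 0.67 ± 0.13 between the necromass types (edgeR, Benjamini-Hochberg adjusted p = 0.013; up to 0.0689 without low melanin replicate 1 or 3 or high melanin replicate 1 or 3). Gene 108301, higher on necromass than on glucose, had 128, 132 and 143 CPM on low melanin and 90.0, 90.0 and 82.2 CPM on high melanin necromass. It changed by −0.62 ± 0.12 (edgeR, Benjamini-Hochberg adjusted p = 0.012; up to 0.0652 without low melanin replicate 3 or high melanin replicate 1 or 3). Gene 82054 stepped down over the 3 substrates, with 26.9, 28.9 and 40.9 CPM on glucose, 6.99, 7.69 and 11.6 CPM on low melanin and 3.21, 2.31 and 2.03 CPM on high melanin necromass. No group overlapped another, and the change between the necromass types was −1.79 ± 0.27 (edgeR, Benjamini-Hochberg adjusted p = 0.0056). Gene 108458 had 29, 39 and 20 counts on low melanin and 3, 0 and 9 counts on high melanin necromass, after 5953, 5487 and 7319 counts on glucose. Its log2 fold change of −2.90 ± 0.59 (edgeR, Benjamini-Hochberg adjusted p = 0.016) rested on few counts. It was −2.30 without high melanin replicate 2 and −4.33 without high melanin replicate 3, and the call was lost without low melanin replicate 1 or high melanin replicate 1 (adjusted p up to 0.0819 in edgeR). On necromass this gene stood at 0.502%, 0.574% and 0.319% of its glucose level in the low melanin libraries and 0.0423%, 0% and 0.15% in the high melanin libraries. The 10 other genes with the lowest ratio of low melanin to glucose, among those of at least 300 CPM on glucose, stood together at 0.503%, 0.459% and 0.482%, and at 0.184%, 0.176% and 0.335%. Their part in the result was not tested. The fifth GT32 gene, 124397, was at 0.23 and did not pass.

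Beside the members, 20 of the 47 CAZymes of fungal wall families passed the same test (12 up, 8 down). That is 42.6%, beside 9.19% of all tested genes. None of the 5 core genes passed by edgeR's quasi-likelihood test. However, 3 of the 5 were higher on high melanin necromass at an unadjusted p under 0.05, and 4 passed by DESeq2. Of the members, 41 had an unadjusted p under 0.05, as had 2389 of all genes. The difference between these lists was not tested. Of the 26 called members, 9 (88887, 91596, 109567, 93498, 82054, 139633, 91667, 120407 and 89863) kept their call under every alternative but a test against a 2-fold boundary, under which 88887 alone passed.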

How the data were processed

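RNA-seq libraries of 9 cultures were analysed, 3 on each of 3 substrates. The authors deposited 1 table of estimated counts per gene, whole numbers that were made with kallisto 0.48.0 according to the submitters' processing notes, which also name DESeq2 1.42.0. The index held the RUT-C30 cDNA sequences of Ensembl Fungi. Reads shared by near-identical genes may be split between them, and intervals cover the replicate spread only.

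Counts as deposited were analysed with edgeR 4.0.16 in R 4.3.3. Genes that reached 10 counts in 3 or more libraries were kept (9312 of 9849), TMM factors were computed, and 1 quasi-likelihood model was fitted to all 9 libraries. P-values were adjusted over all genes by Benjamini-Hochberg. The test gives no standard error. Those printed are the absolute log2 fold change divided by the square root of the test's F statistic. CPM are counts per 1000000 of the TMM-scaled library size, and a floor of 3 counts was used for lower bounds. The fit was tested on simulated data. DESeq2 1.42.0, other scalings, filters, fits and single libraries left out served as alternatives. The members, their roles and the lists were chosen with earlier results of these data known. The rule for naming genes took every member that passed between the necromass types, the 4 highest and 3 lowest of each role by log2 fold change on low melanin necromass, families of 3 or more, members nearest the limit and members at the floor; the remaining members named were added after their values were seen. Annotation came from the family tags of the study's gene lists, 1781 rows of the low melanin list and 1317 rows of the high melanin list being at hand; their values were not used. Figures were drawn with matplotlib 3.10.9 in Python 3.11.15.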

Additional observations from a re-analysis of the deposited data

How the results depend on the processing

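All 26 members called between high and low melanin necromass kept their sign in every alternative. The count of members called, 26 with 856 of all genes, was 37 (1428 of all genes) with DESeq2, 50 (2909) when only both necromass groups were fitted and 1 (36) with a test against a 2-fold boundary, where the count past a 4-fold change was also 1. RLE factors gave 26, upper-quartile factors 27 and no filter on low counts 24. All 26 were among those called by DESeq2 and by the fit of both necromass groups. With 1 library left out, 10 to 47 members, 257 to 2371 of all genes and 1 to 2 members past a 4-fold change were called. The lowest counts came without a necromass library and the highest without glucose replicate 1. The main fit estimated the spread of each gene over all 9 libraries, glucose included. The cause of the change in counts was not tested. The labels do not say whether replicate numbers pair the cultures. Correlations of same-numbered libraries were −0.205 to 0.117, within the −0.318 to 0.315 of libraries with different numbers. A fit with the number as a block called 18 members, all among the 26, and 551 of all genes. Reading the AA1_2 and AA1_3 tags as AA1, which leaves 86 members, still gave 26 calls. Against glucose, 79 to 84 members on low melanin and 77 to 83 on high melanin necromass were past the limits with 1 library left out. With TMM-scaled counts of the filtered genes as denominator, the members' mean share on high melanin necromass was 7.05% in place of 6.69%. Depth limits the genes with few counts, among them 134945, 108458, 74129 and 74991.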
